A study of Gallus gallus with 5 samples.

Results

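Noncoding RNA features, the rows of the deposited count tables whose RefSeq identifier begins with NR_ or XR_, were described in chicken DT40 cells with and without doxycycline. DT40 is a B-cell lymphoma line, and its cells here carried a conditional knockout of CAP-H, a kleisin protein that belongs to condensin I, one of the complexes that compact mitotic chromosomes. The 2 libraries labelled CAP-H off came from knockout cells given doxycycline at 100 ng/ml for 36 h (replicates 1 and 3), and the 3 labelled CAP-H on came from the same knockout cells without doxycycline (replicates 1, 2 and 3). All 5 libraries therefore carried the knockout background, and the presence of the drug cannot be told apart from the loss of CAP-H. The labels do not say whether replicates were separate cultures or how many clones were used, so the spread behind every p-value is that of 5 libraries and may be technical only.

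Of 17036 rows, 886 were noncoding, 475 with an NR_ and 411 with an XR_ identifier, against 16150 coding rows. Rows with equal counts that repeated another row's interval or identifier were reduced to 1, which left 861 distinct noncoding features of 16143 distinct features. Each was placed by its interval on the chicken build galGal4. A total of 522 features (544 rows) overlapped no coding feature and are called standalone. A further 294 lay wholly inside the interval of a coding feature, its host, whose reads were counted with them. The remaining 45 (48 rows) overlapped a coding interval in part or spanned one. A symbol was found for 449 NR_ rows but for only 5 XR_ rows, so most XR_ features are known here by identifier alone.

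The NR_ identifiers mainly mark short RNAs of known kind. MicroRNA precursors are hairpins cut from longer transcripts by Drosha and Dicer, and the microRNAs they yield lower the output of messenger RNAs. Small nucleolar RNAs guide chemical changes on ribosomal RNA and small Cajal body RNAs do so on spliceosomal RNA, both usually released from introns of host genes, and the telomerase RNA TERC is the template for telomere repeats. The XR_ identifiers mark transcripts predicted from sequence that were given no protein, and their functions are mostly unknown.

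Total counts ranged from 12199522 to 22533003 per library, so that 1 count stood for 0.0442 to 0.0934 CPM (counts scaled to a common library total). The smallest deposited count was 1, so a value of 1 may stand for no read at all and is taken here as the limit of detection. B-cell identity was checked with 11 of 15 listed marker genes found in the table, of which 9 averaged at least 5 CPM, among them PAX5 and CD79B. Their summed level was 1200 to 1251 CPM in CAP-H off libraries and 1536 to 1581 CPM in CAP-H on libraries. Of the markers of other cells, 1 of 6 T-cell genes (CD3D), 1 of 4 macrophage genes (MPEG1), 0 of 3 erythroid and thrombocyte genes and 1 of 3 fibroblast genes (COL1A2) averaged at least 5 CPM. Their summed levels in CAP-H off and CAP-H on libraries were 104 to 105 and 88.3 to 99.0 CPM for T cells, 8.69 to 10.6 and 22.9 to 27.1 CPM for macrophages, 0.253 to 0.374 and 0.248 to 0.442 CPM for erythroid cells, and 31.9 to 34.4 and 30.5 to 35.5 CPM for fibroblasts. ICOS, CD14, MARCO and DCN stood at the smallest count in all 5 libraries, and the part of other cells in the results was not tested. No row carried the symbol of the CAP-H gene, NCAPH (0 rows), so the labels could not be checked on the targeted gene.

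A large share of the noncoding features was at the limit of detection. In 311 of 861 features (36.1%) all 5 libraries held the smallest count of 1, against 17.5% of all features. MicroRNA precursors made up most of these, with 211 of 436 at 1 in every library. Their annotated lengths were 54 to 169 bases, and the sources used here do not give a size selection. The 394 longer noncoding RNAs were more often detected, with 92 at 1 in every library. Noncoding features together held 5.12% and 5.41% of counts in CAP-H off libraries, against 3.56%, 3.35% and 3.37% in CAP-H on libraries. The groups did not overlap in this share. These shares count a read in each feature it overlaps. With the nested feature XR_139985.1 left out, XR_140315.1 and XR_139986.1 together held 66.7% and 68.4% of noncoding counts in CAP-H off libraries, against 42.0%, 38.9% and 39.3% in CAP-H on libraries. Without XR_140315.1, XR_139986.1 and XR_139985.1, the share of all counts went the other way. The remaining noncoding features held a smaller share in both CAP-H off libraries than in any CAP-H on library. The higher share in CAP-H off libraries is thus that of these few features, not of the class.

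After a filter on low counts, 342 of the 861 features could be tested, and 113 passed an adjusted p of 0.05, 55 higher and 58 lower in CAP-H off cells. Over all 10079 features tested, 46.3% passed, 22.6% higher and 23.7% lower. Among the 174 standalone features tested, 41 rose and 33 fell (42.5%), with a median log2 fold change of 0.07. Among the 136 tested inside a host, 10 rose and 16 fell (19.1%), with a median of -0.13, and without CAP-H off replicate 1 the falls numbered 10. Among the 32 tested that overlapped a coding interval in part, 4 rose and 9 fell (40.6%), with a median of -0.08. The median over all features tested was 0.00. Scaling by library size alone moved that median to -0.18, and then 29 standalone features rose and 52 fell, 8 inside a host rose and 32 fell, and 2 partly overlapping rose and 16 fell, so the balance of rises and falls depends on the scaling. Groups did not overlap in 114 standalone features (65.5%), 63 features inside a host (46.3%) and 22 partly overlapping ones (68.8%), against 64.9% of all features tested.

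The share that passed differed by the level of the feature, and was highest at 50 CPM or more in standalone features, in features inside a host and in all features. Standalone features tested had a median level of 8.78 CPM and those inside a host 3.52 CPM, against 37.7 CPM for all features tested. At 50 CPM or more, 36 of 46 standalone features passed (78.3%) and 5 of 9 inside a host (55.6%), against 63.6% of all features at that level. Between 10 and 50 CPM the shares were 47.2% of standalone features, 50% of features inside a host and 41.8% of all features. Between 2 and 10 CPM they were 21.4%, 15.5% and 27.8% for these groups in the same order. Under 2 CPM, 9 of 36 standalone features (25%) and 2 of 40 inside a host (5%) passed, against 18.6% of all features. The differences between these shares were not tested.

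**Figure D1:**
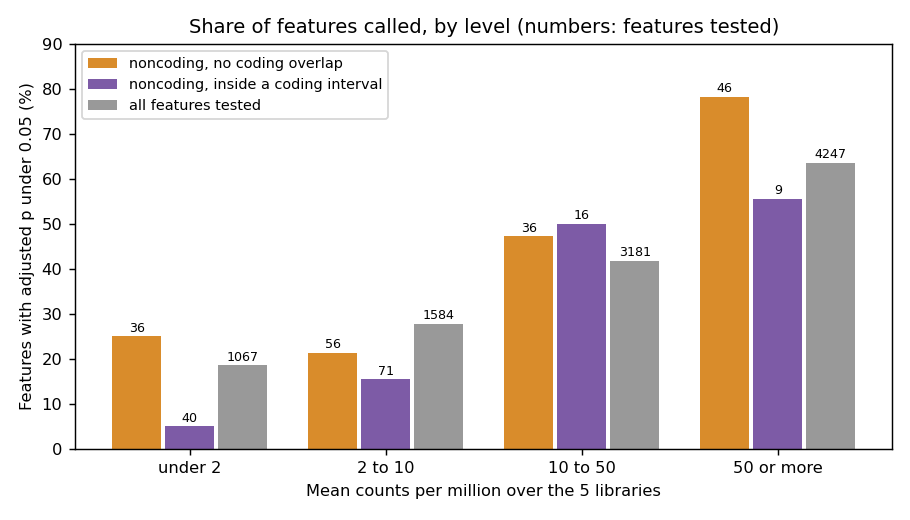
Share of tested features that passed an adjusted p of 0.05 in CAP-H off against CAP-H on libraries, by mean level in CPM, for standalone noncoding features, noncoding features inside a host and all features tested. The share climbs with level in all features, where it is 18.6% under 2 CPM and 63.6% at 50 CPM or more, and standalone features at 50 CPM or more stand at 78.3%.

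By kind of RNA, 207 longer RNAs were tested, of which 46 rose and 44 fell (43.5%), at a median level of 16.9 CPM. Of 121 microRNA precursors tested, 8 rose and 12 fell (16.5%), at a median level of 2.88 CPM, against 46.3% of all features tested and 27.8% of all features at 2 to 10 CPM. Of the 4 small nucleolar or Cajal body RNAs in the table, 1 rose and 1 fell. Of 9 tested short RNAs with no symbol, 0 rose and 1 fell, and 3 had an unadjusted p under 0.05.

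Among standalone features the largest difference was that of XR_140315.1, a predicted RNA of unknown function at chromosome 22, 2937123 to 2946787. It measured 15648 and 16374 CPM in CAP-H off libraries, against 17.9, 19.0 and 17.2 CPM in CAP-H on libraries. The lowest CAP-H off library was 821-fold above the highest CAP-H on library. The fitted log2 fold change was 9.79 ± 0.04 (SE; edgeR quasi-likelihood test, adjusted p = 6.35e-25), an 886-fold rise. Of 16143 features it had rank 2 by level in both CAP-H off libraries, and rank 6604, 6465 and 6674 in CAP-H on libraries. Its share of all counts was 1.45% and 1.52% in CAP-H off libraries and 0.00191%, 0.00199% and 0.00179% in CAP-H on libraries. Per kilobase of its span it averaged 1657 CPM in CAP-H off libraries and 1.87 CPM in CAP-H on libraries.

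The coding features on either side of XR_140315.1 showed no such rise. MXD1, a transcription factor that binds MAX in competition with MYC, lies 5431 bases away. MXD1 measured 84.4 and 81.9 CPM in CAP-H off libraries, against 84.1, 83.8 and 87.2 CPM in CAP-H on libraries, and its log2 fold change of -0.03 did not pass (adjusted p = 0.69). The coding feature on the other side, 9561 bases away, is TACR1, the receptor of the neuropeptide substance P, and it stood at 1 count in all 5 libraries.

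In all, 11 of the standalone features that passed rose at least 2-fold and 6 fell at least 2-fold, most of them at means under 5 CPM. The rises and falls given next are the 10 largest of each among features that averaged at least 5 CPM and whose groups did not overlap. In these rises and falls the absence of overlap was fixed by that choice. Groups did not overlap in 64.9% of all features tested. After XR_140315.1 these rises were much smaller. XR_140059.1 (chromosome 2, 114983446 to 114985380) measured 13.8 and 16.9 CPM in CAP-H off libraries, against 5.35, 5.12 and 3.30 CPM in CAP-H on libraries. Its log2 fold change was 1.70 ± 0.20 (adjusted p = 3.64e-06), and the groups did not overlap. The coding feature 31 bases from it, XM_427081.3, was too low to be tested.

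XR_140141.1 (chromosome 5, 45326430 to 45330283) measured 168 and 179 CPM in CAP-H off libraries, against 60.3, 70.3 and 65.2 CPM in CAP-H on libraries. It rose by a log2 fold change of 1.42 ± 0.06 (adjusted p = 7.39e-11), with every CAP-H off library above every CAP-H on library. It lies 426 bases from GLRX5, a mitochondrial protein of iron-sulphur cluster assembly, whose log2 fold change was -0.07 (adjusted p = 0.53).

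XR_140215.1 (chromosome 10, 834643 to 837550) measured 895 and 955 CPM in CAP-H off libraries, against 367, 421 and 425 CPM in CAP-H on libraries. The log2 fold change was 1.19 ± 0.06 (adjusted p = 6.10e-10). Its nearest coding feature, XM_413713.3, 113 bases away, moved the other way, with 3.12 and 2.80 CPM in CAP-H off libraries, against 10.2, 9.70 and 9.33 CPM in CAP-H on libraries. That coding feature fell by 1.72 ± 0.21 on the log2 scale (adjusted p = 5.66e-06).

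XR_139990.1 (chromosome 1, 47944528 to 47945296) measured 989 and 951 CPM in CAP-H off libraries, against 536, 556 and 611 CPM in CAP-H on libraries. It rose by 0.77 ± 0.06 on the log2 scale (adjusted p = 2.21e-08), and the groups did not overlap. The coding feature 863 bases away, XM_003640369.1, rose by 0.89 ± 0.06 (adjusted p = 1.76e-08). The other 5 of these 10 rises were XR_140116.1 (0.92), XR_140010.1 between ATP5O and MRPS6 (0.80), XR_139991.1 (0.70), XR_140343.1 (0.69) and XR_140338.1 (0.69), all on the log2 scale and all passing. XR_140338.1 lies 100 bases from MVP, the main protein of vault particles, whose log2 fold change was 0.05 and did not pass. Of these, XR_140338.1 and XR_139991.1 did not pass without CAP-H off replicate 1, XR_139991.1 did not pass without CAP-H on replicate 1, and XR_140343.1 did not pass without CAP-H off replicate 3.

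**Figure D2:**
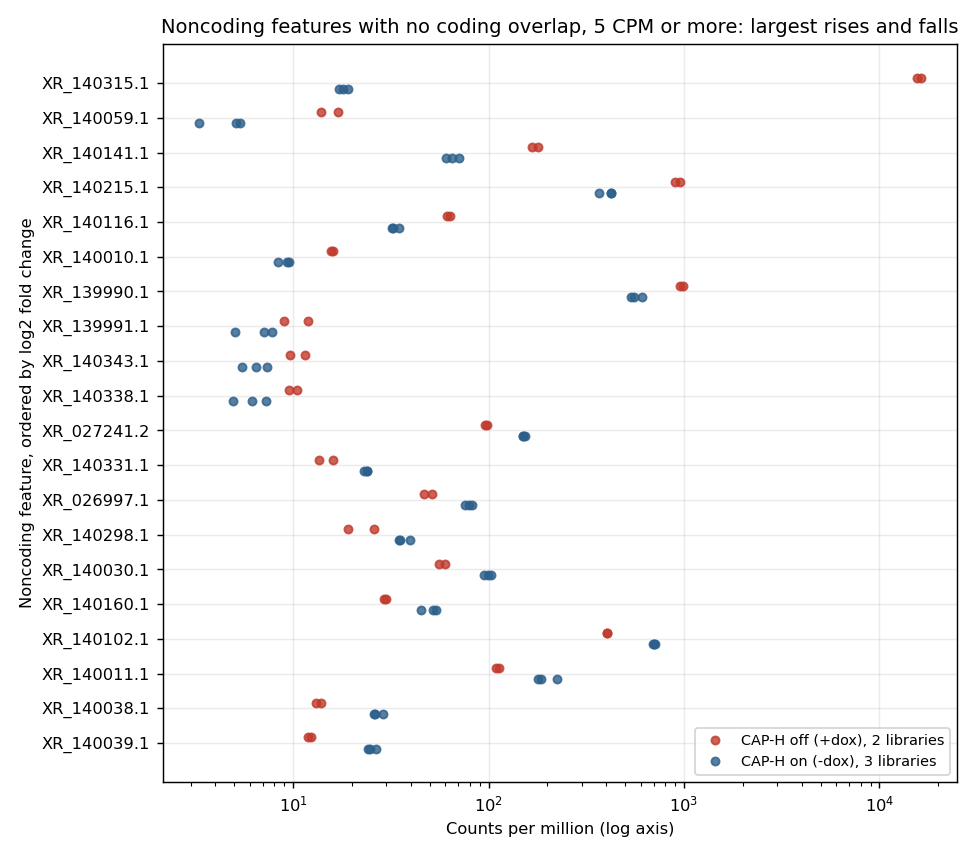
Level in CPM (log axis) of the standalone noncoding features with the 10 largest rises and 10 largest falls among those that averaged at least 5 CPM and whose groups did not overlap, with 1 point for each of the 2 CAP-H off and 3 CAP-H on libraries. XR_140315.1 stands apart, with 15648 and 16374 CPM in CAP-H off libraries and 17.2 to 19.0 CPM in CAP-H on libraries. The absence of overlap in the 20 features was part of how they were chosen.

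The largest falls among these standalone features at 5 CPM or more were about 2-fold. XR_140039.1 (chromosome 2, 22217948 to 22227346) measured 12.3 and 11.9 CPM in CAP-H off libraries, against 24.1, 26.4 and 24.8 CPM in CAP-H on libraries, and fell by 1.05 ± 0.12 on the log2 scale (adjusted p = 4.22e-06). XR_140038.1 (22120244 to 22129642 on the same chromosome) measured 13.8 and 13.1 CPM, against 25.9, 28.8 and 26.3 CPM, in the same libraries, and fell by 1.002 ± 0.12 (adjusted p = 5.07e-06). The spans of this pair are both 9399 bases long, 88305 bases apart, and their counts are alike, so reads may have been split or shared between near-identical copies and their values are uncertain.

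XR_140102.1 (chromosome 4, 126222 to 166245) measured 401 and 401 CPM in CAP-H off libraries, against 710, 696 and 705 CPM in CAP-H on libraries. It fell by 0.81 ± 0.05 on the log2 scale (adjusted p = 4.30e-09), with no overlap between groups. Its nearest coding feature, FDX1B, was too low to be tested.

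XR_140011.1 spans 147936 bases of chromosome 1 (105396646 to 105544581) between CLIC6 and SETD4. It measured 109 and 113 CPM in CAP-H off libraries, against 224, 180 and 185 CPM in CAP-H on libraries, and fell by 0.82 ± 0.09 (adjusted p = 1.10e-06). XR_140030.1, which spans 64064 bases between MRPS31, a mitochondrial ribosomal protein, and COG6, a Golgi tethering subunit, measured 60.0 and 56.1 CPM in CAP-H off libraries, against 99.9, 102 and 94.9 CPM in CAP-H on libraries, and fell by 0.77 ± 0.06 (adjusted p = 6.15e-08). The groups did not overlap in either feature. The other 5 were XR_140160.1 (-0.78), XR_140298.1 (-0.71), XR_026997.1 (-0.69), XR_140331.1 (-0.67) and XR_027241.2 (-0.64), all on the log2 scale and all passing.

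The noncoding pair of highest level in CAP-H on libraries was XR_139986.1 (chromosome 1, 32562876 to 32576171) and XR_139985.1, which lies within it (32564538 to 32568953). XR_139986.1 measured 14174 and 15670 CPM in CAP-H off libraries, against 10698, 9674 and 9821 CPM in CAP-H on libraries. Among all features it had rank 4 and rank 3 by level in CAP-H off libraries and rank 2 in all CAP-H on libraries, and it rose by 0.57 ± 0.04 on the log2 scale (adjusted p = 8.39e-09). The inner feature held 74.4% and 74.1% of the counts of the outer one in CAP-H off libraries, and 73.8%, 74.3% and 73.9% in CAP-H on libraries. XR_139985.1 measured 10545 and 11610 CPM in CAP-H off libraries, against 7892, 7192 and 7261 CPM in CAP-H on libraries, and rose by the same 0.57 ± 0.04 (adjusted p = 5.96e-09). The pair shares reads and gives 1 measurement, not 2. Per kilobase of span the inner feature averaged 2508 CPM in CAP-H off libraries and 1687 CPM in CAP-H on libraries, and the outer 1122 and 757 CPM. The nearest coding feature, FAM19A2, lies 109773 bases from the outer one and was too low to be tested.

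Other abundant standalone features differed in direction. XR_140184.1 measured 336 and 341 CPM in CAP-H off libraries, against 521, 487 and 525 CPM in CAP-H on libraries, and fell by 0.59 ± 0.06 (adjusted p = 6.67e-07). XR_140178.1 measured 366 and 344 CPM in CAP-H off libraries, against 335, 369 and 356 CPM in CAP-H on libraries, and did not pass, with a log2 fold change of 0.01 ± 0.06 (adjusted p = 0.95). Its groups overlapped.

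Many standalone features lie close to a coding feature. Of the standalone features tested, 109 had a coding feature within 5 kb, of which 31 rose and 22 fell (48.6% passed). The other 65 had none within 5 kb, of which 10 rose and 11 fell (32.3%). Over all features tested 46.3% passed, and the difference between near and far features was not tested. Among the 53 near features that passed, the nearest coding feature also passed in 20, in the same direction in 12 and the opposite direction in 8. In 29 the coding feature was tested and did not pass, and in 4 it was not tested. XR_140298.1 and its neighbour XM_417309.3 both fell, by 0.71 and 0.60 on the log2 scale. XR_140331.1 fell by 0.67, whereas MFSD4A, a membrane transporter 427 bases away, rose by 0.93 (adjusted p = 0.023).

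**Figure D3:**
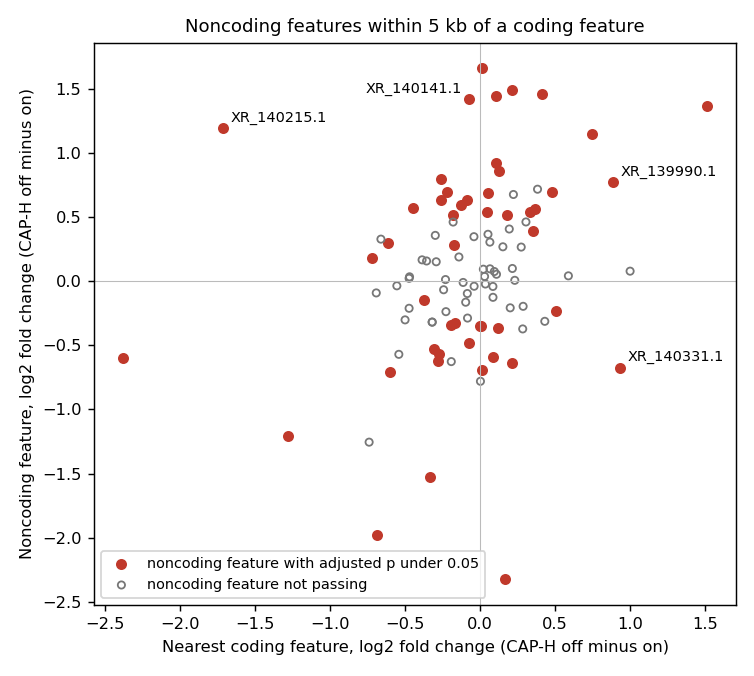
Log2 fold change (CAP-H off over CAP-H on) of each standalone noncoding feature with a coding feature within 5 kb, against that of the coding feature, where both were tested. Of the 20 pairs in which both passed, 12 moved in the same direction and 8 in opposite directions, and XR_140141.1 and XR_140215.1 rose beside coding features that did not.

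A chosen list of known RNAs (microRNAs of blood cells, growth and tumour suppression, small nucleolar and Cajal body RNAs, and TERC) was mostly at low counts. Of its 45 members in the table, 12 stood at 1 in all 5 libraries and 13 could be tested. MIR155, the microRNA of activated B cells, stood at 1 in every library, as did MIR21, MIR146A, MIR146B, MIR34A, MIR34B and MIR34C. These values are for precursor intervals in a library not stated to be made for short RNA, and they say nothing of the mature microRNAs.

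TERC (chromosome 9, 19428748 to 19429085) measured 6.24 and 5.23 CPM in CAP-H off libraries, against 3.58, 4.44 and 4.71 CPM in CAP-H on libraries. The groups did not overlap, but the log2 fold change of 0.46 ± 0.23 did not pass (adjusted p = 0.11). TERT, the catalytic protein of telomerase, had a log2 fold change of 0.02 and did not pass either.

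The 6 precursors of the MIR17 cluster, which promotes B-cell survival and growth in mammals, lie at chromosome 1, 147253127 to 147253922. Their summed counts were 63 and 38 in CAP-H off libraries, against 72, 48 and 46 in CAP-H on libraries, or 5.31 and 3.55 CPM against 3.18, 3.28 and 3.80 CPM. The groups overlapped, and single counts were between 1 and 34. MIR19A had 3 and 8 counts in CAP-H off libraries, against 19, 16 and 15 in CAP-H on libraries, and its log2 fold change of -1.06 ± 0.55 did not pass (adjusted p = 0.13). It was -0.46 without CAP-H off replicate 1 and -1.99 without CAP-H off replicate 3, and passed in neither case. MIR18A had 34 and 11 counts in CAP-H off libraries, against 25, 23 and 11 in CAP-H on libraries, with a log2 fold change of 0.72 (adjusted p = 0.20). MIR18A passed at 1.26 when CAP-H off replicate 3 was left out (adjusted p = 0.039), and was -0.22 when CAP-H off replicate 1 was left out.

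The let-7 family, whose microRNAs restrain growth genes and whose processing LIN28 proteins block, had 11 precursors in the table, 4 of them at 1 in all libraries and 2 tested. MIRLET7D, which is standalone, measured 2.70 and 3.92 CPM in CAP-H off libraries, against 1.90, 1.64 and 1.40 CPM in CAP-H on libraries. It rose by 0.97 ± 0.32 (adjusted p = 0.021). Its log2 fold change was 0.69 without CAP-H off replicate 3 and 1.22 without CAP-H off replicate 1. Each of these fits leaves a single CAP-H off library, so the size of the rise depends on which is kept. MIRLET7D did not pass with scaling by library size alone (0.79, adjusted p = 0.051). It did not pass with the replicate number as a block either (0.94, adjusted p = 0.08). MIRLET7G, inside WDR82, a gene for a histone methyltransferase subunit, had a log2 fold change of -0.26 (adjusted p = 0.41), and WDR82 fell by 0.31 (adjusted p = 0.00045).

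MIR142, a microRNA of blood cells, had 8 and 15 counts in CAP-H off libraries, against 28, 13 and 10 in CAP-H on libraries, with a log2 fold change of 0.01 (adjusted p = 0.99). MIR16-2 and MIR15B, whose microRNAs restrain the cell cycle in mammals, lie together inside SMC4, a gene for a core subunit of both condensin complexes. MIR16-2 measured 3.63 and 4.02 CPM in CAP-H off libraries, against 5.39, 5.74 and 4.38 CPM in CAP-H on libraries, and MIR15B measured 4.13 and 4.58 CPM, against 5.83, 5.94 and 4.79 CPM. The groups did not overlap in either, but neither passed, MIR16-2 at -0.45 (adjusted p = 0.13) and MIR15B at -0.36 (adjusted p = 0.21) on the log2 scale. SMC4 itself did not pass (-0.08, adjusted p = 0.31), and the reads of both precursors are counted in it too.

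Some standalone precursors outside that list were chosen after their values were seen. MIR1561 measured 1.60 and 2.34 CPM in CAP-H off libraries, against 0.265, 0.956 and 0.826 CPM in CAP-H on libraries, and rose by 1.63 ± 0.49 (adjusted p = 0.013). MIR2129 measured 0.337 and 0.280 CPM in CAP-H off libraries, against 2.16, 1.16 and 1.24 CPM in CAP-H on libraries, and fell by 2.32 ± 0.57 (adjusted p = 0.0035). With MIRLET7D these were the 3 standalone precursors that passed of 23 tested. The CAP-H off values of MIR2129 stood near the limit of detection, as 1 count was 0.0843 CPM in replicate 1 and 0.0934 CPM in replicate 3. MIR1561 and MIR2129 were not among the features followed under other settings.

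Apart from features at the smallest count, 4 pairs of noncoding features with at least 3 counts in every library had equal counts in all 5 libraries, although the intervals lie apart. These were MIR375 and MIR1788 (9312 bases apart), XR_139976.1 and MIR205B (67952 bases), MIR16-1 and MIR15A (58 bases) and MIR30E and MIR30C1 (1127 bases). MIR16-1 and MIR15A each had 3 and 3 counts in CAP-H off libraries, against 7, 4 and 9 in CAP-H on libraries. MIR30E and MIR30C1 each had 68 and 77 counts in CAP-H off libraries, against 123, 96 and 67 in CAP-H on libraries. The members of such a pair are not separate evidence.

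The features inside a host that passed moved in the direction of the host. Of 134 tested inside 120 separately tested hosts, 25 passed, and in all 25 the host passed in the same direction. A further 47 did not pass while their host did, 37 of them with the sign of the host. Across the 134 features Pearson's r between the log2 fold changes of feature and host was 0.69, a description only, since feature and host share reads. No library gave a host fewer counts than the feature inside it (0 cases). The features held a median of 3.75% of the counts of their host. Of the 134, 126 had more reads per base than the mean of the whole host span, at a median of 7.34 times that mean. Most of these features are short and a read is counted in each feature it overlaps. The ratio was therefore not read as a level above that of the host, and what lay behind it was not tested.

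**Figure D4:**
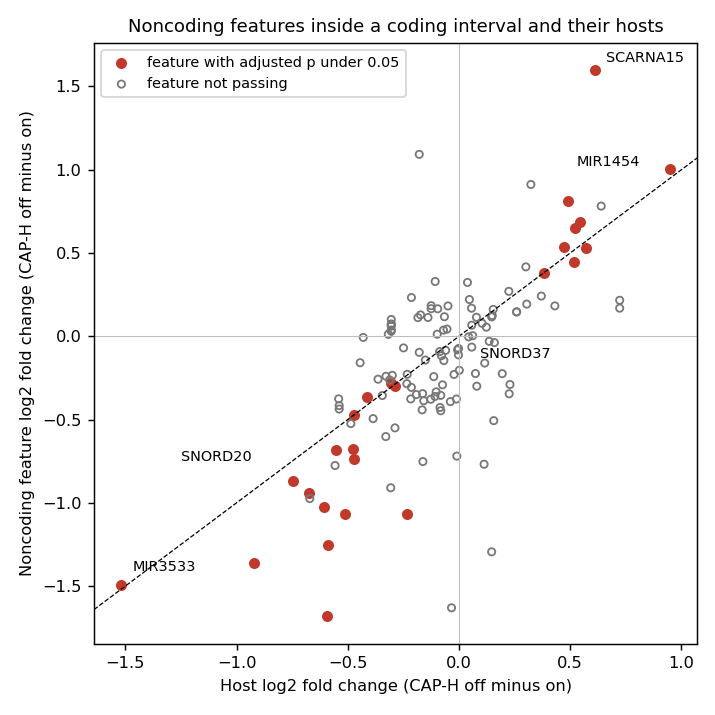
Log2 fold change (CAP-H off over CAP-H on) of each tested noncoding feature inside a host, against that of its host. Features whose host held under 100 counts outside them in any library are not drawn. The dashed line marks equal change. Among all 134 tested, the 25 that passed have a host that passed in the same direction. MIR3533 lies with ACTB near -1.5, and SCARNA15 lies above its host, 1.60 against 0.61.

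MIR1454 (chromosome 3, 56049381 to 56049480), a microRNA precursor, had the highest level of any feature inside a host. It measured 836 and 805 CPM in CAP-H off libraries, against 379, 418 and 430 CPM in CAP-H on libraries, and rose by 1.004 ± 0.06 (adjusted p = 1.88e-09). Its host XM_419736.3 rose by 0.95. The precursor held 35.4% and 34.5% of host counts in CAP-H off libraries, and 33.5%, 34.0% and 33.5% in CAP-H on libraries.

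MIR3533 (chromosome 14, 4170286 to 4170369), inside ACTB, the gene for beta-actin, measured 44.4 and 45.2 CPM in CAP-H off libraries, against 123, 123 and 132 CPM in CAP-H on libraries. It fell by 1.49 ± 0.06 (adjusted p = 3.16e-11), and ACTB fell by 1.52. The precursor held 7.96% and 7.90% of ACTB counts in CAP-H off libraries, and 8.10%, 7.44% and 7.88% in CAP-H on libraries, and these shares overlapped.

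SNORD20 (chromosome 9, 14752126 to 14752207), a small nucleolar RNA inside the gene of nucleolin (NCL), measured 63.2 and 61.2 CPM in CAP-H off libraries, against 120, 105 and 116 CPM in CAP-H on libraries. It fell by 0.87 ± 0.07 (adjusted p = 3.42e-08), and NCL fell by 0.75. SNORD20 held 5.60% and 5.56% of NCL counts in CAP-H off libraries, and 6.41%, 5.91% and 5.90% in CAP-H on libraries.

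The other small nucleolar RNAs inside hosts did not pass. SNORD37, inside EEF2, the translation elongation factor gene, measured 158 and 168 CPM in CAP-H off libraries, against 165, 163 and 163 CPM in CAP-H on libraries, with a log2 fold change of -0.00 (adjusted p = 0.97). SNORD69 measured 16.2 and 16.2 CPM in CAP-H off libraries, against 15.7, 16.9 and 14.6 CPM in CAP-H on libraries, with a log2 fold change of 0.04 (adjusted p = 0.84). In both the groups overlapped.

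SCARNA15 (chromosome 10, 10562407 to 10562468), a small Cajal body RNA inside XM_429329.2, rose more than its host. It had 76 and 77 counts in CAP-H off libraries, against 53, 33 and 25 in CAP-H on libraries, or 6.41 and 7.19 CPM against 2.34, 2.25 and 2.06 CPM. It rose by 1.60 ± 0.24 (adjusted p = 5.67e-05). The host measured 49.8 and 48.4 CPM in CAP-H off libraries, against 32.2, 29.3 and 35.2 CPM in CAP-H on libraries, and rose by 0.61 ± 0.09 (adjusted p = 3.55e-05). SCARNA15 thus held 12.9% and 14.9% of host counts in CAP-H off libraries, and 7.28%, 7.69% and 5.87% in CAP-H on libraries.

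A test of each feature relative to the host reads outside it was added after the data had been seen. It covered 131 features whose host held at least 100 such counts in every library, and 1 passed (0.763%), which was SCARNA15, at 1.09 ± 0.20 on the log2 scale (adjusted p = 0.0012). It did not pass without CAP-H on replicate 2 (1.15, adjusted p = 0.073), when 0 features passed and 12 had an unadjusted p under 0.05. The count was 3 without CAP-H off replicate 1 and 8 without CAP-H off replicate 3. The host of SCARNA15 held under 1000 counts outside it in at least 1 library, and with hosts of at least 1000 counts 0 of 63 features passed and 4 had an unadjusted p under 0.05. Before adjustment 14 of the 131 had a p under 0.05, and the median was -0.05. Relative to their hosts MIR1454 measured 0.08 (adjusted p = 0.22) and SNORD20 -0.13 (adjusted p = 0.46), and neither passed.

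**Figure D5:**
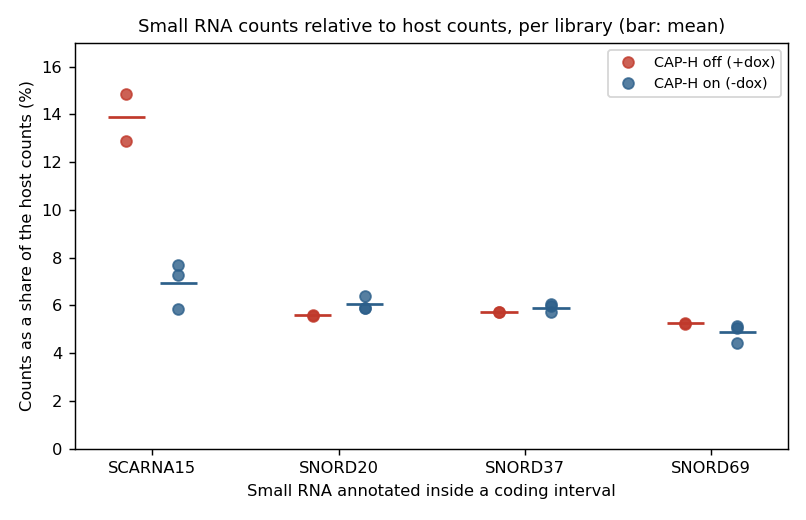
Share of host counts (percent) held by the 4 small nucleolar or Cajal body RNAs inside hosts, with a bar at the mean and 1 point for each of the 2 CAP-H off and 3 CAP-H on libraries. SCARNA15 holds 12.9% and 14.9% in CAP-H off libraries and 5.87% to 7.69% in CAP-H on libraries, whereas SNORD37 lies between 5.72% and 6.04% in all 5 and SNORD69 between 4.45% and 5.26%.

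Of the remaining features named inside hosts at 5 CPM or more, those that rose were MIR3528 (0.81), MIR1598 (0.69), MIR3526 inside CST3, the gene for the protease inhibitor cystatin C (0.65), XR_140242.1 (0.54) and MIR1755 inside EIF4E2, a cap-binding protein gene (0.53). Those that fell were MIR1615 (-1.07), MIR1655 (-1.03), MIR7-1 inside HNRNPK, an RNA-binding protein gene (-0.68), and NR_035071.1 (-0.47). The hosts of these 9 features passed in the same direction, with log2 fold changes of 0.47 to 0.57 beside the rises and -0.61 to -0.47 beside the falls. MIR1615 did not pass without CAP-H off replicate 1 (-0.75, adjusted p = 0.065). MIR1655 was -0.68 without that library and still passed (adjusted p = 0.0072). MIR1755 (adjusted p = 0.041) and NR_035071.1 (adjusted p = 0.048) were near the threshold, and neither passed with DESeq2, with no filter, or without any single library other than CAP-H on replicate 3. Among features of high level, XR_140163.1 inside PSAP fell by 0.28 (adjusted p = 0.00083), and XR_140309.1 inside GNB1 (-0.09) and XR_140326.1 inside C2CD2L (0.07) did not pass. NR_004440.1, a noncoding transcript of ADARB1 at the same interval as a coding one, had a log2 fold change of 0.16 (adjusted p = 0.046), which scaling by library size alone turned to -0.02. Its log2 fold change was 0.08 without CAP-H off replicate 1. It did not pass without replicate 2 or 3 of CAP-H on, nor with DESeq2, no filter, edgeR's exact test or the replicate block.

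Of the features that overlapped a coding interval in part, some were chosen after their values were seen. XR_140264.1 (chromosome 14, 4154222 to 4169800), which overlaps FBXL18 and ACTB, measured 267 and 280 CPM in CAP-H off libraries, against 810, 913 and 906 CPM in CAP-H on libraries. It fell by 1.68 ± 0.06 (adjusted p = 1.31e-11). ACTB fell by 1.52, and FBXL18, a ubiquitin ligase subunit, did not pass (0.16, adjusted p = 0.39). XR_026642.2 (chromosome Z, 23320468 to 23417024), which overlaps F2RL2, measured 128 and 130 CPM in CAP-H off libraries, against 259, 261 and 260 CPM in CAP-H on libraries, and fell by 1.01 ± 0.06 (adjusted p = 4.01e-09). F2RL2, a thrombin receptor gene, fell by 0.77 (adjusted p = 0.010). In both noncoding features the groups did not overlap, as in 64.9% of all features tested. A read in a stretch shared with a coding feature is counted in each. Neither noncoding feature was among those followed under other settings.

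Genes for proteins that make, bind or degrade these RNAs were described in 6 lists. Only part of each list was found by symbol, with 7 of 16 names for microRNA processing and 7 of 11 for RNase P and RNase MRP. For small nucleolar and Cajal body partners 5 of 13 were found, and for 7SK and telomerase 5 of 8. For RNA turnover 15 of 23 were found, and for 3' end processing and Integrator 12 of 23. The counts below cover only genes found and tested. Over all features tested 46.3% passed, and of all features at 50 CPM or more 63.6% passed. Of 6 tested genes of microRNA processing, 0 rose and 4 fell, among them LIN28B, which blocks let-7 maturation (-0.50), DICER1, the enzyme that cuts precursors to mature microRNAs (-0.36), and the Argonaute gene AGO3 (-0.34). DICER1 measured 73.3 and 65.9 CPM in CAP-H off libraries, against 92.4, 84.3 and 90.9 CPM in CAP-H on libraries, and the groups did not overlap. Of 7 genes for proteins of RNase P and RNase MRP, which trim transfer and ribosomal RNA, 5 rose and 1 fell, with rises in POP5 (0.83), RPP30 (0.82) and RPP25L (0.53). Without CAP-H off replicate 1 the rises numbered 3, and without CAP-H off replicate 3 the falls numbered 0.

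Of 5 tested protein partners of small nucleolar and Cajal body RNAs, 2 rose and 2 fell, and 1 rose without CAP-H on replicate 2. DKC1, the pseudouridine synthase that also binds TERC, measured 2826 and 2913 CPM in CAP-H off libraries, against 1121, 1125 and 1147 CPM in CAP-H on libraries. It rose by 1.34 ± 0.03 (adjusted p = 3.65e-13), with no overlap between groups. NOLC1 and TCOF1, nucleolar proteins of ribosome production, each fell by 0.23. TCOF1 did not pass with edgeR's exact test (adjusted p = 0.053), and the falls of this list then numbered 1.

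Of 5 tested proteins of 7SK and telomerase RNA, 1 rose and 3 fell. The rise did not pass without any single library other than CAP-H on replicate 2, and the falls numbered 2 without any of 3 single libraries (CAP-H off replicate 3 and CAP-H on replicates 1 and 2). HEXIM1, which with 7SK RNA holds back the elongation factor P-TEFb, fell by 0.54, LARP7, which stabilises 7SK, by 0.30, and the cyclin CCNT2 by 0.24. CCNT2 did not pass without CAP-H off replicate 3 (-0.09, adjusted p = 0.47). Of 15 genes of RNA turnover, not all of them nuclear, 3 rose and 5 fell. XRN1, a 5' exonuclease, was at -0.47, and the exosome subunits EXOSC2 and EXOSC9 were at 0.41 and 0.36. The falls in RNA turnover numbered 3 without CAP-H on replicate 2. Of 12 genes of 3' end processing and Integrator, 2 rose and 4 fell, among them INTS2 (-0.42), INTS13 (-0.40) and CSTF3 (-0.24), and 1 rose without CAP-H off replicate 1 or CAP-H off replicate 3. These list values are log2 fold changes of CAP-H off over CAP-H on. Over all 6 lists 13 genes rose and 19 fell of 50 tested, against the shares of 22.6% and 23.7% over all features. Most of these genes averaged 50 CPM or more, a level at which 63.6% of all features passed. The part of the 50 that passed is near that share, and no list was tested as a set. Scaling by library size alone gave 6 rises and 28 falls in these genes.

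The authors' deposited table of their own comparison lists 106 noncoding identifiers, 68 standalone, 26 inside a host and 12 partly overlapping. Of the entries in the authors' deposited table, 39 have a log2 fold change above 0 and 67 below 0, and its direction is not stated there. Of these, 101 were tested here, all 101 with the same sign as the fold change of CAP-H off over CAP-H on. Of them 91 passed here, whereas 113 noncoding features passed here in all, so some that passed here are not listed. The listed identifiers are only part of the 861 distinct noncoding features. The share that passed among them is therefore not like the 46.3% of all features tested. The authors compared cells of this same series with and without doxycycline, so the shared signs and passes are not independent evidence. XR_140315.1 has a log2 fold change of 9.74 in the authors' deposited table.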

How the data were processed

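Whole-number counts per RefSeq identifier and interval on galGal4 were deposited by the authors for 5 libraries of total RNA, per the labels. Bowtie, TopHat2 2.0.8b, edgeR 3.2.3 and FastQC stand in the submitters' processing notes without roles, and the sources used here do not give the counter, the strand setting or a filter. Reads of overlapping or antisense features therefore cannot be told apart. The comparison table deposited by the authors holds, per the file headers, a log2 fold change, a log2 mean level in CPM, a p-value and a likelihood-ratio score for each identifier. Its fold change is the column used.

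Groups came from the sample titles. Rows with equal counts and the same interval, or equal counts and the same identifier, were reduced to 1. A noncoding feature was classed by whether its interval lay wholly inside, overlapped in part or did not overlap any NM_ or XM_ interval. Symbols came from a RefSeq table of GRCg7b, matched on the accession without version. Counts of all features were fitted with no covariates by the quasi-likelihood test of edgeR 4.0.16 (R 4.3.3). Low counts were removed with filterByExpr, libraries were scaled by TMM, and p-values of the 10079 features left were adjusted by Benjamini-Hochberg, at a threshold of 0.05. CPM use the TMM factors. Standard errors were taken as the log2 fold change divided by the root of its F statistic. The test relative to the host used host counts outside the feature as an offset.

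Named features were the 10 largest rises and 10 largest falls among standalone features that passed, averaged at least 5 CPM and did not overlap between groups, the same for 6 and 6 inside hosts, the 8 of highest level in each class, a list of known RNA names, XR_140315.1, and up to 3 genes per protein list. The members, names and lists were chosen with earlier results of these data known. Values outside this rule are said to be so. Alternatives were scaling by library size, DESeq2 1.42.0, no filter, a replicate block, each library left out, and distance from coding features. Precision rests on counts of 12199522 to 22533003 per library, and covers counting and library spread only.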

Additional observations from a re-analysis of the deposited data

How the results depend on the processing

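Of the 39 named features that passed, 31 passed in the same direction under every alternative run. Those that did not pass under at least 1 were ADARB1, NR_035071.1, MIR1755, MIRLET7D, MIR1615, XR_139991.1, XR_140338.1 and XR_140343.1. The alternatives were scaling by library size alone, DESeq2, no low-count filter, counts of 1 set to 0, all rows as deposited, edgeR's exact test, a replicate block and leaving out each library. Causes of the differences below were not tested, except where fewer features were counted.

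With library size alone, 1272 of all features rose and 4119 fell. The standalone falls were then 52 and the median -0.113, the falls inside hosts 32 and the median -0.312, and the partly overlapping features had 2 rises, 16 falls and a median of -0.263. Genes of RNA-processing proteins then had 6 rises and 28 falls, and those of RNase P and RNase MRP 3 rises and 2 falls. Signs turned in ADARB1 (-0.0206), MIR142 (-0.17), SNORD69 (-0.146), XR_140178.1 (-0.174, adjusted p = 0.021) and XR_140326.1 (-0.116). SNORD37 (-0.185, adjusted p = 0.018), MIR16-2 (-0.63, adjusted p = 0.036) and XR_140309.1 (-0.273, adjusted p = 0.0029) then passed as falls in the quasi-likelihood test. With TMM scaling none of them had passed. Falls inside hosts numbered 8 with DESeq2, where SNORD37 was 0.000735. With no filter the partly overlapping rises were 2, and MIR142 (-0.0144), SNORD69 (-8.5e-05) and XR_140178.1 (-0.0293) turned sign. At 5 kb or more from a coding feature, 10 standalone features rose and 11 fell, of the 65 left there.

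Same-numbered libraries did not deviate together (correlations of -0.0108 and -0.0287). The 2 CAP-H off libraries deviate from their mean by equal and opposite amounts, so these correlations are not separate checks. Replicate numbers were not taken to pair samples. With the number as a block, falls inside hosts were 10 and standalone features had 33 rises and 32 falls, RNase P and RNase MRP genes had 3 rises, and MIR142 was -0.0845.

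Leaving out each library gave 10 to 14 falls inside hosts with medians of -0.2 to -0.0707, and 0 to 8 features changed relative to the host. The count relative to the host was also 0 where the host held at least 1000 counts. Over the libraries left out, MIR18A ranged over -0.221 to 1.26, SNORD37 over -0.0437 to 0.0366, XR_140178.1 over -0.0429 to 0.0564, MIR142 over -0.577 to 0.461, MIR146C-1 over -0.177 to 0.0256 and SNORD69 over -0.00777 to 0.0891. None of these 6 passed with all libraries. At this depth 211 of 436 microRNA precursors were at 1 count in every library, so differences in them were not detectable.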
